A study of Mus musculus with 53 samples.

Results

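The core circadian clock genes were followed through RNA sequencing of laser-captured hypothalamic nuclei from mice lacking the paternal copy of *Nnat*. They were 10 genes chosen by symbol, out of 53379 genes in the count tables: *Clock*, *Arntl*, *Per1*, *Per2*, *Per3*, *Cry1*, *Nr1d1*, *Nr1d2*, *Dbp* and *Ciart*. The rule used no measured value of these libraries, although the genes were chosen with earlier results of these data known. All 10 genes passed the filter on low counts in every fit.

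The molecular clock is a transcriptional loop that runs in most cells with a period of about a day. CLOCK and ARNTL (also called BMAL1) form a dimer that binds E-box sequences and activates the *Per* and *Cry* genes, *Nr1d1*, *Nr1d2*, *Dbp* and *Ciart*. PER and CRY proteins return to the nucleus and repress the dimer, CIART represses it as well, the REV-ERB receptors encoded by *Nr1d1* and *Nr1d2* repress *Arntl*, and DBP activates genes through D-box sequences. The suprachiasmatic nucleus (SCN) holds the master clock of the brain, and the paraventricular nucleus (PVN) and arcuate nucleus (ARC), both involved in the control of feeding, also express these genes. *Arntl* and *Dbp* peak at nearly opposite times of day in most tissues, so that the ratio of their levels within a library is a sign of the time at which the tissue was frozen.

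Motifs of the loop can be looked for in the promoters of the genes themselves. The letters below are GRCm38.p6 sequence from RefSeq, written 5′ to 3′ on the strand of the gene, and the capitals mark the motif; each stretch runs to 20 bases beyond the outermost match. They are shown because they hold letters that match motifs of the activator dimer, DBP and the REV-ERB receptors. The letters were CACGTG for the E-box, TTANGTAA for the D-box and AGGTCA for the motif that REV-ERB and ROR receptors bind. Each was sought on both strands in the 250 bases before every annotated start. The first 3 sequences hold E-boxes, the next holds D-boxes and the last holds AGGTCA.
Ciart: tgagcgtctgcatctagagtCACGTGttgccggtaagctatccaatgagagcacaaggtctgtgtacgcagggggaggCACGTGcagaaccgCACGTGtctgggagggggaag
Cry1: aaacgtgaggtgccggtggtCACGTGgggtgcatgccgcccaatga
Per1: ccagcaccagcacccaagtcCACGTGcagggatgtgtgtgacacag
Per3: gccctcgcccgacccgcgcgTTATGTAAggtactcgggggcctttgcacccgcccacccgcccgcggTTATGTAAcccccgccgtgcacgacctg
Nr1d2: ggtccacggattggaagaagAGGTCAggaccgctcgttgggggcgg

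The *Ciart* stretch lies before the gene at chr3:95882252-95882364 on the minus strand and holds 3 E-boxes, which begin 116, 58 and 44 bases upstream of the start. Of 32851 promoter windows of the same length, 6.02% held CACGTG and 0.0609% held 3 or more copies. The *Cry1* stretch lies before the gene at chr10:85185089-85185134 on the minus strand, and the *Per1* stretch at chr11:69098763-69098808 on the plus strand, inside an intron of a longer annotated form of *Per1*. The *Per3* stretch lies before the gene at chr4:151044796-151044890 on the minus strand and holds 2 D-boxes, where 2.06% of all windows held 1 or more and 0.0731% held 2 or more. The *Nr1d2* stretch lies before the gene at chr14:18239158-18239203 on the minus strand, and 14.0% of all windows held AGGTCA, as did a window of *Clock* and one of *Per1*. Entries were found for 9 of the 10 genes, all but *Per2*, and the windows of *Arntl*, *Nr1d1* and *Dbp* held none of these letters. TGACGTCA, the cyclic AMP response element, was in none of the windows of these genes and in 1.55% of all windows. These are matches of letters and were not tested as binding sites.

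Mice were C57BL/6 adults, wild-type (*Nnat*+/+, WT) or heterozygous for a paternally inherited *Nnat* allele (*Nnat*+/-p). That allele lacks exons 2 and 3 and carries a lacZ cassette. By the study's methods, brains were collected at 13 to 14 weeks of age, an age stated there for male mice only. In the female PVN on chow there were 4 WT libraries, and 3 of non-obese and 3 of obese *Nnat*+/-p mice. In the male PVN there were 3 WT, 3 non-obese and 4 obese *Nnat*+/-p libraries on chow, and 6 WT and 3 *Nnat*+/-p libraries on high-fat diet (HFD), fed by the methods at 45% fat from 4 weeks of age. In the male ARC there were 2 WT, 4 non-obese and 4 obese *Nnat*+/-p libraries on chow, and 6 WT and 4 *Nnat*+/-p libraries on HFD. Samples 39 and 40 of the non-obese ARC share the weight 34.3 g, so those 4 libraries may come from 3 mice. Samples 1 and 2 of the WT females likewise share the weight 24.1 g, so those 4 libraries may also come from 3 mice. Body weights were 24.1 to 24.6 g in WT, 20.4 to 23.9 g in non-obese and 31.5 to 33.35 g in obese females. In males on chow they were 31.4 to 33.5 g in WT, 27.4 to 34.3 g in non-obese and 38.8 to 46.5 g in obese mice, and 37.4 to 43.9 g on HFD. Chow and HFD males came from separate cohorts, so diet and cohort cannot be told apart. Mice were housed under 12 h of light and 12 h of dark with lights on from 7.00 to 19.00, and the time of day of each dissection is not given in the sources used here.

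Libraries held 6219365 to 30228973 counts in the female PVN, 2268021 to 8560199 in the male PVN and 1479953 to 18058097 in the male ARC. *Nnat* was 231 to 531 counts per 1000000 scaled counts of the library (CPM) in WT and 0.268 to 17.2 CPM in *Nnat*+/-p libraries, with no overlap. Of 53 libraries, 49 were used; Samples 5, 7, 32 and 35 were left out. Sample 15, the library labelled as WT male PVN on chow, had a summed level of 5 PVN markers of 10.9 CPM where the male PVN median was 1191 CPM, with ARC markers at 179, ventromedial markers at 118 and forebrain markers at 251 CPM where the medians were 12.9, 5.36 and 15.6 CPM, and Sample 24, a WT HFD male PVN library, had 157 CPM. Markers of the SCN, 7 in all, summed to 0.187 to 44.3 CPM over all libraries. *Vip*, a defining SCN neuropeptide, had no count in 10 of 10 female PVN, 13 of 19 male PVN and 16 of 20 ARC libraries. Other SCN markers were present, and *Six6* and *Rgs16* had counts in every ARC library, with medians of 8.70 and 4.09 CPM. The ARC medians of the rest were 1.88 CPM for *Lhx1*, 1.13 for *Grp*, 0.361 for *Prok2* and 0 for *Nms*. In bulk tissue, fewer cells of a type and less RNA per cell cannot be told apart. Nothing but body weight ties libraries to separate mice, so the p-values measure the spread between these libraries.

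All 10 genes were detected in every nucleus, and the REV-ERB genes and *Dbp* had the highest medians, joined in the PVN by *Per1*. Levels were compared between genes as median CPM per kb of exon. In the female PVN, *Nr1d1* was at 14.8, *Dbp* at 12.8, *Per1* at 11.3 and *Nr1d2* at 8.76 CPM per kb. In the male PVN, *Dbp* was at 10.5, *Nr1d1* at 9.71, *Nr1d2* at 8.60 and *Per1* at 7.12 CPM per kb. In the male ARC, *Dbp* was at 10.7, *Nr1d1* at 8.31, *Nr1d2* at 7.65 and *Per1* at 4.43 CPM per kb, and *Per1* there ran from 2.83 to 7.75 CPM per kb, across the range of *Clock* at 3.12 to 6.55. The positive arm had *Clock* at 4.42 to 4.94 and *Arntl* at 1.95 to 2.91 CPM per kb over the 3 tables. *Cry1* was at 4.18 to 4.99, *Per2* at 2.13 to 2.87, *Per3* at 1.95 to 2.36 and *Ciart* at 0.413 to 1.39 CPM per kb. Neighbours in this order, such as *Clock* and *Cry1* or *Per3* and *Arntl*, overlapped over the libraries of each table.

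The genes also differed in their spread over libraries. *Clock* was the steadiest in each table, with a coefficient of variation of 24.8% in the female PVN and 19.4% in both male nuclei. *Ciart* was the most variable in each, at 162% in the female PVN, 81.0% in the male PVN and 46.1% in the ARC. It had no count in Samples 13, 22 and 40, where 3 counts would be 0.745, 0.597 and 0.373 CPM. *Per2* varied by 83.5% in the female PVN, from 0.187 CPM in Sample 10, a single count, to 60.8 CPM in Sample 3. *Cry1* was likewise at 1 count, or 0.182 CPM, in Sample 2, and was between 7.59 and 26.4 CPM in the other female libraries. Without molecular identifiers, limits drawn from counts cover counting error only.

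**Figure D1:**
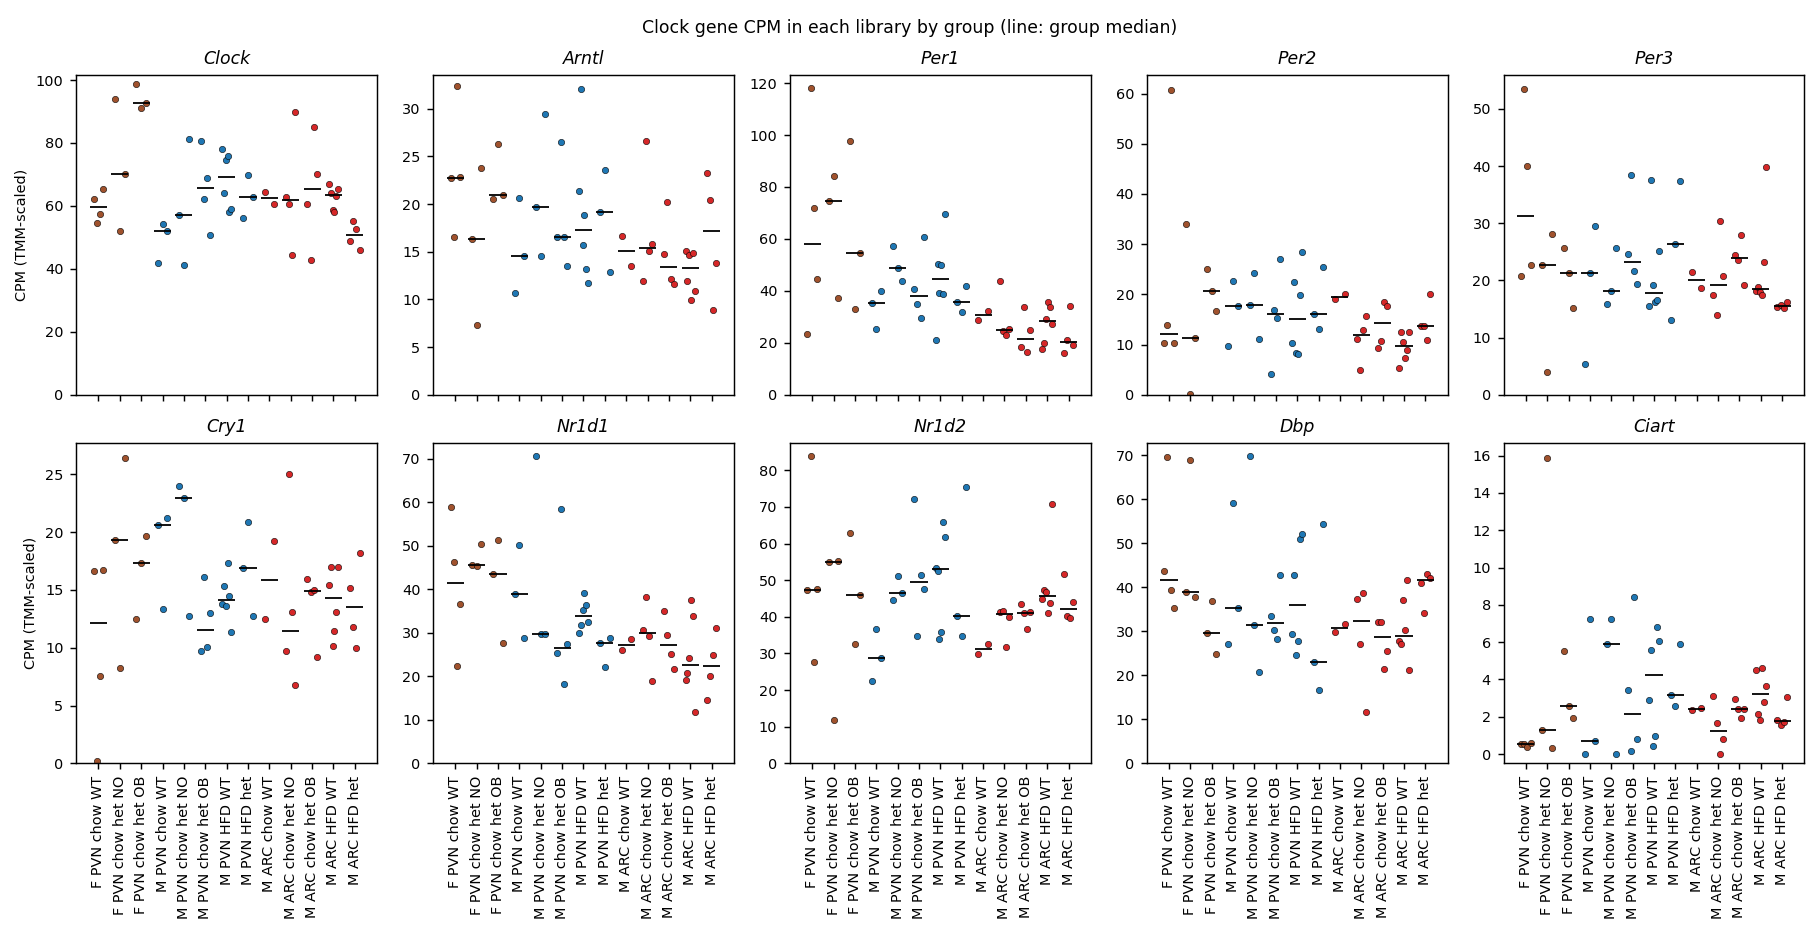
CPM of each clock gene (y axis) in each of the 49 libraries by group (x axis), with each point a library. *Clock* lies within 41.1 to 98.9 CPM throughout, whereas *Ciart* runs from 0 to 15.9 CPM.

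Female *Nnat*+/-p mice were compared with WT mice to ask whether loss of *Nnat*, with or without obesity, changed these genes in the PVN. Over 13 comparisons of groups of 2 to 6 libraries within a table, in females and males, 14 of 130 member comparisons (10.8%) had no overlap in CPM between the groups, beside 6.27% over all genes tested. None of the 10 genes passed the threshold of an adjusted p under 0.25 in obese against WT mice, where 0.0129% of all 15485 genes did. None passed in non-obese against WT mice, where 0.00646% did, or in obese against non-obese mice, where 0% did. *Clock*, the DNA-binding partner of ARNTL, was at 62.1, 54.6, 57.4 and 65.3 CPM in WT mice and at 98.9, 91.3 and 92.7 CPM in obese *Nnat*+/-p mice. All 3 obese libraries lay above all 4 WT libraries, and the non-obese libraries, at 94.1, 52.1 and 70.2 CPM, spanned both. Between obese and WT libraries, 6.54% of all genes had no overlap. The log2 difference of obese from WT mice was 0.65 (SE 0.29), with an adjusted p of 0.9997 by the quasi-likelihood test of edgeR, Benjamini-Hochberg adjusted.

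*Ciart*, a repressor of the CLOCK dimer, was at 0.533, 0.546, 0.367 and 0.593 CPM in WT females and at 5.55, 2.59 and 1.95 CPM in obese *Nnat*+/-p females. These groups did not overlap, although the log2 difference of 2.69 had an SE of 1.59. The non-obese females were at 1.27, 15.9 and 0.337 CPM. The log2 difference of non-obese from WT mice was 3.49 (SE 1.63) with all libraries and 0.67 without Sample 10, the library at 15.9 CPM. *Dbp*, the D-box activator, was at 29.7, 36.8 and 24.9 CPM in obese and 38.9, 68.9 and 37.8 CPM in non-obese females. The obese libraries were all lower, by a log2 difference of -0.68 (SE 0.44) that did not pass the test. Between obese and non-obese females, 8.65% of all genes had no overlap. *Arntl*, *Per1*, *Per2*, *Per3*, *Cry1*, *Nr1d1* and *Nr1d2* overlapped between all female groups.

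In the PVN of chow-fed males, *Nr1d2*, which encodes REV-ERBβ, had the smallest p of the clock genes in both comparisons with WT mice. It was at 22.6, 36.7 and 28.8 CPM in WT mice, at 44.6, 51.2 and 46.5 CPM in non-obese and at 72.1, 34.7, 51.5 and 47.6 CPM in obese *Nnat*+/-p mice. Every non-obese library lay above the WT libraries, and 1 obese library, Sample 17, fell among them. The log2 difference from WT was 0.81 (SE 0.30) in obese and 0.69 (SE 0.32) in non-obese mice, and both comparisons share the same WT libraries. Without Sample 15 they were 0.81 and 0.68. By the quasi-likelihood test of edgeR, Benjamini-Hochberg adjusted, the adjusted p was 0.9998 and 0.9999, and none of the 10 genes passed. Of all 15618 genes tested, 0.0256% passed in obese against WT, 0.0128% in non-obese against WT and 0% in obese against non-obese mice.

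*Per1*, a rapidly induced member of the negative arm, was at 35.3, 25.5 and 40.1 CPM in WT, 57.2, 48.8 and 43.9 CPM in non-obese and 40.6, 35.1, 29.5 and 60.9 CPM in obese mice. The non-obese libraries did not overlap the WT libraries (log2 difference 0.58, SE 0.32), whereas the obese libraries did. Between non-obese and WT libraries, 7.58% of 17576 genes had no overlap. *Cry1*, the repressor partner of the PER proteins, was at 24.0, 23.0 and 12.7 CPM in non-obese and 9.69, 16.1, 10.0 and 13.0 CPM in obese mice, which overlapped. The remaining 7 genes overlapped between all of these groups.

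In the ARC of chow-fed males, *Per2*, a PER repressor, was lower in *Nnat*+/-p than in WT libraries, without passing the test. *Per2* was at 19.1 and 20.0 CPM in the 2 WT libraries, at 11.1, 5.00, 12.9 and 15.7 CPM in non-obese and at 9.34, 10.6, 18.5 and 17.8 CPM in obese mice. Every *Nnat*+/-p library was below both WT libraries, by a log2 difference of -0.76 (SE 0.41) in non-obese and -0.48 (SE 0.41) in obese mice. *Nr1d2* was at 29.9 and 32.5 CPM in WT, at 41.4, 41.7, 31.7 and 39.9 CPM in non-obese and at 43.4, 40.9, 36.7 and 41.3 CPM in obese mice. Of the *Nnat*+/-p groups, the obese libraries were clear of the WT libraries, with a log2 difference of 0.38 (SE 0.24). Of 15753 genes, 12.6% had no overlap between obese and WT libraries, and 9.66% between non-obese and WT libraries. None of the 10 genes passed in any of these comparisons, where 0.0205% of 14658 genes passed in obese against WT, 0.0136% in non-obese against WT and 0.00682% in obese against non-obese mice. The 2 WT libraries limit both comparisons with WT, and with Sample 35, a WT library of 271324 counts, added, the log2 differences were -0.37 for *Per2* in non-obese and 0.06 for *Nr1d2* in obese mice.

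**Figure D2:**
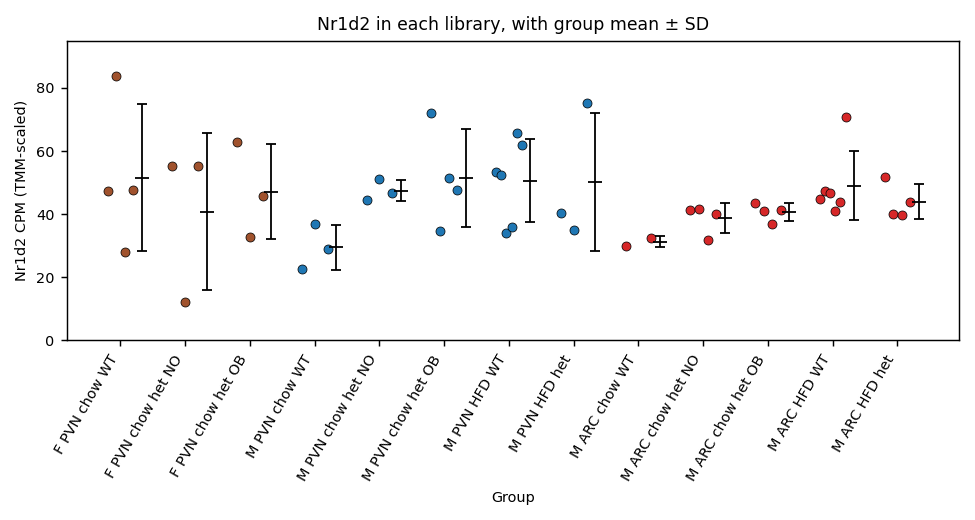
*Nr1d2* CPM (y axis) in each library by group (x axis), with bars for the group mean ± SD. The 3 WT chow libraries of the male PVN lie at 22.6 to 36.7 CPM and the 2 of the ARC at 29.9 and 32.5 CPM, whereas the HFD WT libraries lie at 33.9 to 65.8 CPM and 40.9 to 70.8 CPM.

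HFD libraries were compared with chow libraries within each nucleus, first in WT mice and then averaged over genotype. *Nr1d2* passed the test in the ARC averaged over genotype, and no clock gene passed in the PVN. In the ARC it ran from 29.9 CPM through a median of 40.4 CPM to 43.4 CPM in 10 chow libraries, and from 39.6 CPM through 44.4 CPM to 70.8 CPM in 10 HFD libraries. The ranges overlapped, with Sample 49 far above the others on HFD. Averaged over genotype, *Nr1d2* rose 1.32-fold on HFD (log2 difference 0.40, SE 0.13, 95% interval 0.13 to 0.67), with an adjusted p of 0.115 by the quasi-likelihood test of edgeR, Benjamini-Hochberg adjusted. It was the 1 called gene of 10, a share close to the 9.27% of 15753 genes that were called. The call was lost without Sample 33 (adjusted p 0.525) or Sample 34 (adjusted p 0.328), the 2 WT chow libraries.

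Summed levels of cell type markers also differed with diet in the ARC. The summed level of 5 ARC markers was 11.9 to 145 CPM on chow and 94.6 to 564 CPM on HFD, and that of 2 ventromedial markers had a median of 63.1 CPM on chow and 18.6 CPM on HFD. Within chow, the ARC markers were at 42.4 to 48.7 CPM in WT, 11.9 to 102 CPM in non-obese and 110 to 145 CPM in obese libraries. The paper reports *Npy* and *Tbx3*, both among these markers, as raised in the ARC of obese *Nnat*+/-p mice on chow and obese WT mice on HFD. The SCN markers were at 8.33 to 29.8 CPM on chow and 11.2 to 44.3 CPM on HFD. The relation of these marker levels to the *Nr1d2* result was not tested.

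Among WT mice alone, *Nr1d2* in the ARC was at 29.9 and 32.5 CPM on chow and between 40.9 and 70.8 CPM on HFD, with a median of 45.8 CPM in 6 libraries. The groups did not overlap, yet the adjusted p of the log2 difference of 0.65 (SE 0.22) was 0.298 by the quasi-likelihood test of edgeR, Benjamini-Hochberg adjusted. *Per2* was at 19.1 and 20.0 CPM on chow and between 5.27 and 12.6 CPM on HFD, with a median of 9.68 CPM. Its groups did not overlap either, and its log2 difference of -1.02 (SE 0.36) had an adjusted p of 0.347. No clock gene passed in this comparison, where 1.16% of all genes did. Between these 6 HFD and 2 chow libraries, 14.1% of all genes had no overlap. In *Nnat*+/-p mice *Per2* ranged from 5.00 to 18.5 CPM on chow and from 10.9 to 20.1 CPM on HFD. The difference between the genotypes in the effect of diet on *Per2* was 1.22 on the log2 scale (SE 0.46) and did not pass, where 0.0127% of genes passed.

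Within the HFD-fed mice, *Per3*, the least essential PER paralogue, was at 15.4, 15.7, 15.2 and 16.2 CPM in the ARC of *Nnat*+/-p mice and at 17.5 to 39.9 CPM in 6 WT libraries. *Clock* was at 48.9, 55.1, 52.7 and 46.0 CPM in *Nnat*+/-p and 58.1 to 67.0 CPM in WT libraries. Neither gene overlapped between the genotypes, and the log2 differences were -0.53 (SE 0.25) for *Per3* and -0.31 (SE 0.18) for *Clock*. Between these groups, 1.18% of all genes had no overlap. No clock gene passed, where 0.0127% of all genes did. Reads of *Per3* may be shared, because the annotated *Per3* lies entirely within *Camta1* on the same strand.

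In the PVN of WT males, *Nr1d2* was at 22.6, 36.7 and 28.8 CPM on chow and at 53.4, 52.4, 33.9, 35.9, 65.8 and 61.8 CPM on HFD. Only Samples 25 and 26 on HFD fell among the chow libraries. The log2 difference was 0.77 (SE 0.27), with an adjusted p of 0.296 by the quasi-likelihood test of edgeR, Benjamini-Hochberg adjusted, and 0.77 without Samples 15 and 24. *Clock* was at 42.0, 54.1 and 52.1 CPM on chow and between 58.1 and 77.9 CPM on HFD, so that the groups did not overlap, with or without Samples 15 and 24. Its log2 difference was 0.46 (SE 0.21), with an adjusted p of 0.445. No clock gene passed, where 1.43% of 17576 genes did. Of the same genes, 5.92% had no overlap between the WT libraries on HFD and on chow.

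In *Nnat*+/-p mice, *Nr1d2* in the PVN was at 34.7 to 72.1 CPM on chow and 34.8 to 75.4 CPM on HFD. The effect of diet in *Nnat*+/-p less that in WT mice was -0.76 on the log2 scale (SE 0.37, 95% interval -1.51 to -0.00429) in the PVN and -0.50 (SE 0.27, 95% interval -1.05 to 0.04) in the ARC, and neither difference passed. Averaged over genotype, *Nr1d2* in the PVN had a log2 difference of 0.40 (SE 0.18) and an adjusted p of 0.335 by the quasi-likelihood test of edgeR, Benjamini-Hochberg adjusted. *Nr1d1*, the paralogue that encodes REV-ERBα, lay in the other direction at -0.37 (SE 0.21). No clock gene passed, where 6.91% of all genes did. The effect of genotype did not pass on HFD, where 0.00569% of genes did, and the difference of that effect between diets passed in 0% of genes. *Nr1d1* on HFD was at 27.7, 22.2 and 28.9 CPM in *Nnat*+/-p and 29.9 to 39.2 CPM in WT PVN libraries, which did not overlap (log2 difference -0.38, SE 0.30). Between these groups, 1.62% of all genes had no overlap. The part of *Nr1d1* that overlaps *Thra* on the opposite strand is 1075 bases, and the strand setting of the counting is not given in the sources used here.

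The effect of diet was then compared between the nuclei. No clock gene differed, where 0.93% of 21400 genes did. By weight, genotype and diet, 16 males were matched as giving both a PVN and an ARC library, and the fit had no term for mouse. The smallest p was for *Clock*, whose diet difference was 0.23 in the PVN and -0.18 in the ARC, a log2 difference between nuclei of -0.42 (SE 0.20, adjusted p 0.513 by the quasi-likelihood test of edgeR, Benjamini-Hochberg adjusted). For *Nr1d2* the difference between nuclei was -0.02, with a 95% interval of -0.49 to 0.45. Over all genes tested the median diet difference was -0.02 in the PVN and -0.01 in the ARC, beside 0.07 and -0.13 over the 10 clock genes.

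**Figure D3:**
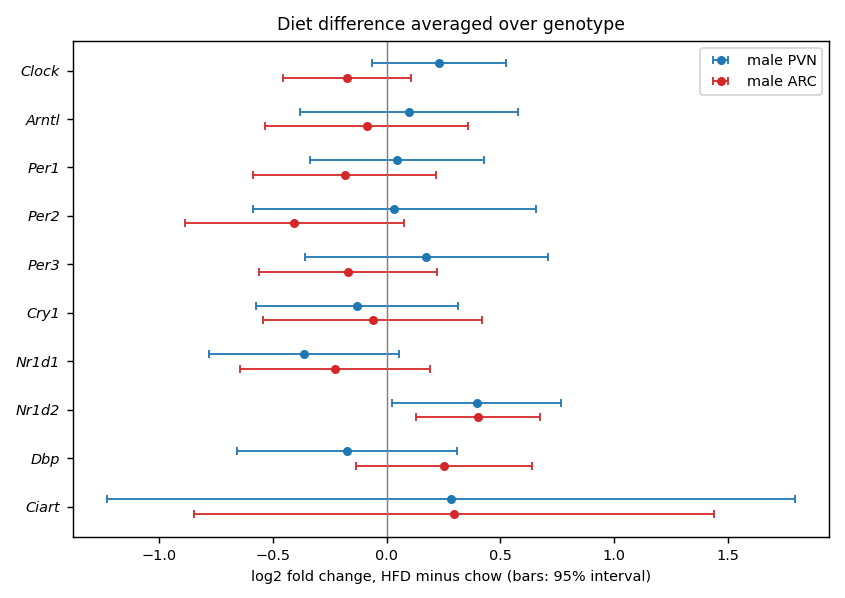
Log2 fold change of HFD against chow averaged over genotype (x axis, bars 95% intervals) for each clock gene (y axis) in the male PVN and male ARC. *Nr1d2* is at 0.40 in both nuclei, and the other 9 genes have intervals that include 0 in each.

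Other genes of the clock and its outputs were read from a list of 20, all of them tested. In the PVN averaged over genotype, 1 of 20 fell and none rose on HFD, beside 5.51% of all genes that fell and 1.41% that rose. It was *Bhlhe40*, a repressor of E-box transcription, at 35.4 to 55.9 CPM on chow and 24.2 to 53.7 CPM on HFD (log2 difference -0.41, SE 0.16, adjusted p 0.225 by the quasi-likelihood test of edgeR, Benjamini-Hochberg adjusted). In the ARC, 1 of 20 rose and 1 fell, beside 4.79% and 4.48% of all genes. *Nampt*, the enzyme that makes the NAD precursor nicotinamide mononucleotide, rose there (log2 difference 0.52, SE 0.15, adjusted p 0.0721), from 23.7 to 40.0 CPM on chow against 26.7 to 55.8 CPM on HFD. *Npas2*, a paralogue of *Clock*, fell in the ARC (log2 difference -0.79, SE 0.29, adjusted p 0.169), from 6.15 to 15.2 CPM on chow against 1.83 to 11.5 CPM on HFD. No gene of this list passed in any other comparison.

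*Per1* and *Per2* also respond to neuronal activity and to glucocorticoids, so 10 immediate early genes and 10 glucocorticoid targets were read beside them. On HFD averaged over genotype, the immediate early gene *Fosb* fell in the PVN (log2 difference -1.85, SE 0.55, adjusted p 0.105 by the quasi-likelihood test of edgeR, Benjamini-Hochberg adjusted) and *Arc* fell in the ARC (-1.15, SE 0.41, adjusted p 0.150). The glucocorticoid target *Fkbp5* fell in the PVN (-0.68, SE 0.24, adjusted p 0.178). Each was the 1 called gene of its list of 10, where 5.51% of all genes fell in the PVN and 4.48% in the ARC. *Per1* in the same fits had log2 differences of 0.04 (SE 0.19) in the PVN and -0.19 (SE 0.20) in the ARC. No gene of either list passed in the other comparisons.

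The ratio of *Arntl* to *Dbp* in each library was read next as a sign of the time of dissection. It is given as log2 of the ratio of their counts, with 0.5 added to each count, and carries no test. In the female PVN it ran from -3.23 through a median of -0.65 to -0.25, in the male PVN from -2.14 through -1.01 to 0.51, and in the male ARC from -2.25 through -1.13 to 0.44. *Arntl* was thus below *Dbp* in 10 of 10, 17 of 19 and 19 of 20 libraries, and the ratio spanned 7.89-fold, 6.26-fold and 6.45-fold within the tables. The lowest female value was that of Sample 10 alone, a non-obese library, and the next was Sample 2 at -2.06. Against *Nr1d1*, *Arntl* was below in 9 of 10, 17 of 19 and 18 of 20 libraries.

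No group stood clear of the others in this ratio over a whole table. In the male PVN the 3 WT chow libraries were close together, at -1.52 to -1.28, whereas the 3 non-obese libraries ran from -1.82 to 0.51, the 4 obese from -1.65 to -0.19, the 6 HFD WT from -2.14 to -0.41 and the 3 HFD *Nnat*+/-p from -2.07 to 0.51. In the ARC the 2 WT chow libraries were at -1.23 and -0.84, the non-obese at -1.64 to 0.44, the obese at -1.14 to -0.66, the HFD WT at -1.59 to -0.88 and the HFD *Nnat*+/-p at -2.25 to -0.74. In the female PVN the 3 obese libraries, at -0.53 to -0.25, overlapped the WT libraries at -2.06 to -0.29, and lay above the non-obese libraries at -3.23 to -0.67. The spread within most groups was as wide as that between them.

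Body weight, with genotype and diet, pairs the PVN and ARC of 16 males, 9 on chow and 7 on HFD. The labels give no mouse identity, so each pair is taken as 1 mouse by this match only. Samples 24 (WT) and 51 (*Nnat*+/-p) both carry the weight 42.9 g, and Samples 30 (*Nnat*+/-p) and 44 (WT) the weight 43.9 g; their genotypes differ, so they were not paired, and the *Nnat* level of each matched its label. Of the 8 mice above the median ratio in the PVN, 5 were above it in the ARC. On chow the mouse of 27.4 g (Samples 22 and 43) had the highest ratio in both nuclei, at 0.51 in the PVN and 0.44 in the ARC, and the mouse of 33.6 g (Samples 18 and 38) the lowest in both, at -1.82 and -1.64. On HFD the mouse of 43.1 g (Samples 29 and 50) was highest in both, at -0.26 and -0.82. The lowest on HFD was Sample 28 in the PVN at -2.14 and Sample 52 in the ARC at -2.25, from different mice. The ratio was higher in the PVN than in the ARC in 4 of 9 chow and 5 of 7 HFD mice.

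**Figure D4:**
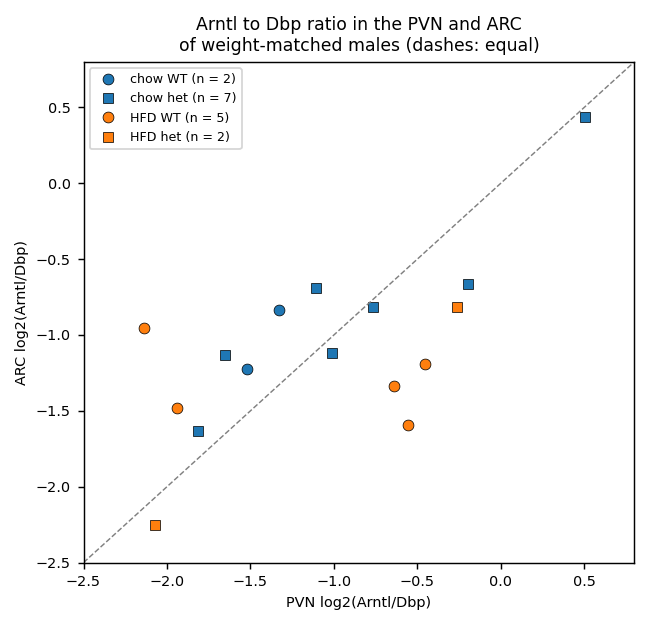
Log2 ratio of *Arntl* to *Dbp* in the PVN (x axis) and ARC (y axis) of 16 weight-matched males, with each point a mouse and the dashed line marking equal ratios. The chow mouse at 0.51 and 0.44 stands at the upper right, and the HFD mouse at -2.07 and -2.25 at the lower left.

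Gene by gene, levels in the PVN and ARC of the weight-matched mice were only loosely related. Group means were not removed here, and 30 relations were computed, those of the 10 genes over all mice, chow mice and HFD mice. Over 16 mice, no gene had a permutation p of Pearson's r under 0.05. *Nr1d2* had r = 0.42 (permutation p 0.103) and Spearman's rho = 0.25 (permutation p 0.345), and r = 0.30 without the 2 mice farthest from the median. *Dbp* had r = 0.35 (permutation p 0.180). The coefficient was positive for 9 of 10 genes, beside 60.3% of 14910 genes, with a median of 0.27 beside 0.08 over all genes. Within the 9 chow mice *Nr1d2* had r = 0.72 (exact permutation p 0.0249) and rho = 0.45 (exact permutation p 0.230), and within the 7 HFD mice r = 0.07. *Dbp* was at r = 0.65 on chow (exact permutation p 0.059) and -0.08 on HFD.

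Levels in these mice were set side by side, although the nuclei were counted and scaled in separate tables. *Per1* was higher in the PVN than in the ARC in 15 of 16 mice, with a median log2 difference of 0.45, and *Nr1d1* in 13 of 16, with 0.52. *Arntl* was higher in the PVN in 12 of 16 mice (0.30), whereas *Clock* was higher in 7 of 16 (-0.13). Nucleus and table cannot be told apart here.

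Within a table, genes of one loop could move together from library to library. This was measured as correlations with *Arntl* and with *Dbp* after group means were removed, 17 pairs in each of 3 tables and 51 in all, of which 8 had a permutation p of r under 0.05. In the male PVN, libraries with more *Dbp* had more *Per2* (r = 0.60, permutation p 0.0032, rho = 0.69, permutation p 0.00218), with r = 0.66 without the 2 farthest libraries. *Dbp* was related likewise to *Nr1d2* (r = 0.64, permutation p 0.00529, rho = 0.62, permutation p 0.0107, and 0.67 without 2) and to *Ciart* (r = 0.63, permutation p 0.00846, rho = 0.63, permutation p 0.00785, and 0.65 without 2). Of all genes, 0.245%, 0.108% and 0.171% had an r with *Dbp* in the male PVN as high as those of *Per2*, *Nr1d2* and *Ciart*. *Arntl* and *Clock*, the partners of the activating dimer, were related in the male PVN (r = 0.53, permutation p 0.0408, rho = 0.52, permutation p 0.0503, and 0.75 without 2). An r with *Arntl* as high as that of *Clock* was found in 1.97% of genes.

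The ARC showed another set of pairs. Libraries with more *Dbp* had less *Clock* (r = -0.73, permutation p 0.00211, rho = -0.70, permutation p 0.00343, and -0.63 without 2 libraries), as low as 0.235% of all genes. *Dbp* and *Nr1d1* were positively related (r = 0.61, permutation p 0.0069, rho = 0.68, permutation p 0.0045), where 2.34% of genes were as high, and r was 0.39 without the 2 farthest libraries. The pairs of the male PVN had r = -0.33 for *Per2*, -0.30 for *Nr1d2* and -0.02 for *Ciart* with *Dbp* in the ARC, and the difference between the nuclei was not tested.

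In the female PVN, *Dbp* and *Cry1* were inversely related (r = -0.80, permutation p 0.0305, rho = -0.83, permutation p 0.00585), as were *Arntl* and *Ciart* (r = -0.86, permutation p 0.0224, rho = -0.75, permutation p 0.054). Without the 2 farthest libraries r was -0.39 in each, so that both rested on those libraries. Of all genes, 7.52% had an r with *Dbp* as low as that of *Cry1*, and the median r with *Dbp* was -0.23. An r with *Arntl* as low as that of *Ciart* was found in 1.38% of genes. *Arntl* and *Dbp*, the genes of the ratio, had r = -0.71 in the female PVN (permutation p 0.0852), -0.28 in the male PVN (permutation p 0.314) and 0.05 in the ARC (permutation p 0.881). Only *Per1* and *Nr1d1* had a positive r with *Dbp* in all 3 tables.

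**Figure D5:**
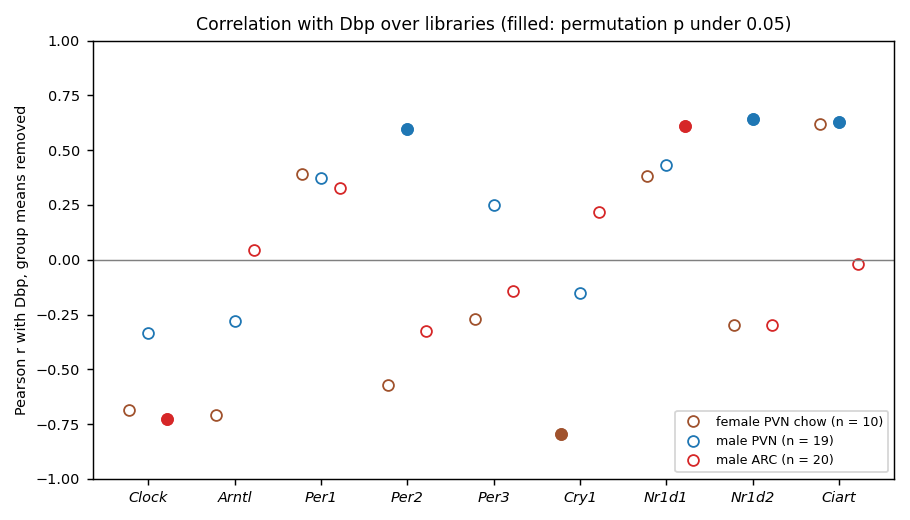
Pearson's r with *Dbp* over libraries after removal of group means (y axis) for the other 9 clock genes (x axis) in each table, with filled points for a permutation p under 0.05. *Per2*, *Nr1d2* and *Ciart* are at 0.60 to 0.64 in the male PVN, and *Clock* is at -0.73 in the ARC.

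The genes most like *Dbp* were ranked by the lowest of their r with *Dbp* over the 3 tables, among 14057 genes. *Pacs1* came first, at 0.68, followed by *Ap2a1* at 0.53, *Mafk* at 0.51, *H2-D1* at 0.51 and *Axl* at 0.49. Of the clock genes, *Nr1d1* was at rank 19 (0.38) and *Per1* at rank 33 (0.33). *Ciart* was at rank 1382, because its r was -0.02 in the ARC.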

How the data were processed

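Per the labels and the study's methods, total RNA from laser-captured nuclei was made into stranded libraries of low input without molecular identifiers, and the authors deposited raw gene counts in 3 tables (female PVN, male PVN, male ARC). The submitters' processing notes name STAR 2.5.0a and GRCm38. The counter and its strand setting are not given in the sources used here. Symbols came from Ensembl identifiers. Each table was filtered with filterByExpr (minimum count 10) on the libraries of a fit, scaled by TMM and tested with edgeR 4.0.16 (glmQLFit, glmQLFTest) under R 4.3.3, with an adjusted p under 0.25 by the Benjamini-Hochberg method as the threshold, as in the study. Chow groups were fitted without HFD groups, and the diet comparisons with all male groups of a nucleus. CPM used TMM-scaled totals and log2 CPM and the count ratios a prior of 0.5. Correlation p-values came from 100000 resamples, within groups for pairs of genes in a table, or from all orders where fewer than 10 mice were used. The fits were tested on simulated data. The members and gene lists were chosen with earlier results of these data known. All 10 members are named throughout, other lists by the genes called, and *Dbp*-like genes by the top 5; statistics follow the smallest p in a comparison and, chosen after their values were seen, members whose groups did not overlap. Alternatives were DESeq2 1.42.0, limma 3.58.1 with voom weights, RLE factors, another filter, another threshold, other sets of libraries and each library left out. Samples 5, 7 and 35 had few counts, and the labels of Sample 32 name the ARC in its title and a PVN table in its description, so these 4 were left out.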

Additional observations from a re-analysis of the deposited data

Results flagged for a closer look

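In groups of 4 or 6 libraries, 4 of 84 combinations of group and measure had a library set apart from the others by Dixon's criterion, which chance alone does in about 1 in 20. *Nr1d2* was at 70.8 CPM in Sample 49, an ARC library of a WT mouse on HFD, where the next was at 47.3 CPM. *Per3* was at 39.9 CPM in the same library, where the next was at 23.2 CPM. *Per1* was at 43.6 CPM in Sample 38, a non-obese chow ARC library, where the next was at 25.2 CPM. *Per2* was at 60.8 CPM in Sample 3, a female WT library, where the next was at 13.8 CPM.

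Signal was also present in libraries outside the comparisons. Clock genes with more than 3 counts numbered 2 in Sample 7, which held 812815 counts in all, 10 in Sample 32, which held 7348988, and 3 in Sample 35, which held 271324. The log2 ratio of *Arntl* to *Dbp* was -2.27 in Sample 32.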

How the results depend on the processing

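No paired analysis was possible because no replicate number recurs between the groups compared within a table. Across nuclei, body weight paired 16 males, which served the correlations and side-by-side levels. The number of clock genes called changed in 5 of 18 comparisons. For *Nr1d2* on HFD in the ARC averaged over genotype, the count of 1 fell to 0 at an adjusted p under 0.05, to 0 with all genes whose counts summed to over 1 (adjusted p 0.277) and to 0 with all labelled libraries, Sample 35 included (log2 difference 0.28, adjusted p 0.459), and rose to 2, with *Per2*, under limma voom. It ranged from 0 to 1 as each library was left out, and the log2 difference of *Nr1d2* from 0.34 to 0.45. In the ARC of WT mice on HFD the count of 0 became 1 by DESeq2, 1 with Samples 39 and 40 summed, 2 under limma voom and 2 with only the compared groups fitted. In the PVN of WT mice it became 1 with all genes whose counts summed to over 1 (*Nr1d2*, adjusted p 0.174), and ranged from 0 to 1 with each library left out, becoming 1 without Sample 14 (adjusted p 0.207). Averaged over genotype in the PVN it ranged from 0 to 1, becoming 1 without Sample 14, 16 or 22 (adjusted p 0.204, 0.2 and 0.249). In non-obese against WT females DESeq2 called 1 gene, *Ciart* (adjusted p 0.21). Of the correlations between nuclei, the number with a permutation p under 0.05 was 0 over all mice, 1 within chow and 2 without TMM factors. The sign of r turned for *Dbp* within HFD (-0.0828), for *Cry1* without TMM factors (0.169) or with Sample 39 alone (0.0617), for *Clock* without TMM factors (-0.0149), for *Per2* without the 2 farthest mice (-0.138), and for *Ciart* within HFD (-0.0360), without those mice (-0.204) or with Sample 40 alone (-0.0384). The cause of these changes was not tested. In each of the 18 comparisons, the log2 difference of the clock gene with the smallest p kept its sign in every setting run. Samples 15 and 24 are in no matched mouse, so leaving them out changed no such correlation. *Ciart*, at under 10 counts in 3 of 10 female PVN, 7 of 19 male PVN and 9 of 20 ARC libraries, was the gene most limited by depth.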
